A study of Mus musculus with 9 samples.

Results

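The 10 genes described here code for the AP-1 transcription factors and their closest relatives in mouse: Fos, Fosb, Fosl1 and Fosl2 of the Fos family, Jun, Junb and Jund of the Jun family, and Atf3, Jdp2 and Batf3. They were chosen by name as a family, with earlier results of these data known. Glucocorticoid receptor (GR) and mineralocorticoid receptor (MR) peaks were assigned to them when the summit of the peak lay in the gene, as annotated by GENCODE on the mm10 assembly, or within 20 kb of it. By this rule 57 peaks over 6 peak lists belonged to 9 of the 10 genes, out of 21938 protein-coding genes on the autosomes and the sex chromosomes.

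AP-1 is a dimer of basic leucine zipper proteins. Jun proteins pair with each other or with Fos proteins and bind the sequence TGACTCA or its reverse complement TGAGTCA, and related pairs also bind the cyclic AMP response element TGACGTCA. Fos, Fosb, Junb and Atf3 belong to the immediate early genes, whose transcription rises within minutes of a stimulus, and several of them are used as markers of neuronal activity. GR protein is also known to make contact with Fos and Jun proteins and to reduce AP-1 activity, a route that needs no binding of GR at the AP-1 genes themselves.

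The binding sites were mapped by ChIP-nexus, in which precipitated chromatin is trimmed by an exonuclease up to the crosslinked protein, in N2A (Neuro2A) cells, a mouse neuroblastoma line. All cultures were transiently transfected with plasmids for both receptors, EGFP-GR and mCherry-MR, in medium with charcoal-stripped serum. The receptor levels are therefore those of the transfection, and N2A cells also have GR of their own. The study's methods give the receptors as rat, and the description deposited with the data gives them as mouse. The 3 treatments were vehicle, corticosterone (CORT) at 100 nM for 20 min, and CORT for 20 min followed by 2 washes and 40 min without steroid (washout). Each of the 6 peak lists, 1 for each receptor after each treatment, was called after 3 replicates had been combined, and 3 input samples without immunoprecipitation were also given. There is therefore no spread between replicates and no test, and the intervals below are exact (Clopper-Pearson) 95% binomial intervals that cover counting error only. A list of peaks does not measure expression, so neither the cell type nor the transcription of the 10 genes can be checked in these data.

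The strength of a peak is given as its −log10 p against input, together with its rank in the list, where equal values share their mean rank, or that rank as a percentage of the list. The −log10 p grows with sequencing depth, which the files do not hold, so it is used to order peaks within a list and not as an amount of binding. For GR there were 64 peaks after vehicle, 10602 after CORT and 246 after washout, and for MR there were 73, 14638 and 4885. The weakest peak listed after CORT had a −log10 p of 4.35 for GR and 4.56 for MR. For a gene without a peak, binding could not be detected with the depth and cutoff of the list concerned.

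The DNA under the peaks that the results turn on is shown first. The sequences are the plus strand of mm10, in lower case. Capitals mark a glucocorticoid response element (GRE), the sequence both receptors bind directly, or an AP-1 motif. A GRE was counted as the half-site AGAACA, any 3 bases, and the half-site TGTTCT, with at most 3 mismatches in the 12 fixed positions, read on both strands, and an AP-1 motif as an exact TGACTCA or TGAGTCA. The first set holds 5 sites of Fosb, Atf3 and Junb, among them the strongest of the family, of which only the Junb site downstream of the gene has either motif. That one lies beside an untranslated exon of a neighbouring gene and is therefore shown as the motif with 11 bases to each side.

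Fosb, 17.1 kb upstream, GR peak after CORT, chr7:19327140-19327264: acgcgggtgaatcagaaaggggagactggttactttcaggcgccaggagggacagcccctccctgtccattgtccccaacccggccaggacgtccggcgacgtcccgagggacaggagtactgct
Atf3, upstream of the main start, MR peak after CORT, chr1:191183430-191183572: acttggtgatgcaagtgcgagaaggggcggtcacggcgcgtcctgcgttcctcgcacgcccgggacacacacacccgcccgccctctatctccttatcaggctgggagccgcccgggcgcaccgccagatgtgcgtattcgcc
Junb, 6.38 kb upstream, MR peak after CORT, chr8:84985044-84985227: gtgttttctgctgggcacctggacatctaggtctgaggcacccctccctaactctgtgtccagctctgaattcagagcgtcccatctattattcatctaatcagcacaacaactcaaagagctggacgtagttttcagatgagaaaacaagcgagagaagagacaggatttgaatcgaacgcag
Junb, 3.31 kb upstream, MR peak after CORT, chr8:84982005-84982058: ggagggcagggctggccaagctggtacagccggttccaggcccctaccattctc
Junb, 12 kb downstream of the start, AP-1 motif, chr8:84966771-84966799: ctgaggccttcTGACTCAcatttcctgaa

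The second set holds peaks with a GRE from 5 of the genes, with the Jdp2 peak, which has an AP-1 motif at its edge. All GREs marked have 3 mismatches.

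Fos, 8.78 kb upstream, MR peak after CORT, chr12:85465079-85465135: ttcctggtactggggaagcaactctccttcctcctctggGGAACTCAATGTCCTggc
Fosl2, 1.43 kb upstream, MR peak after CORT, chr5:32134324-32134511: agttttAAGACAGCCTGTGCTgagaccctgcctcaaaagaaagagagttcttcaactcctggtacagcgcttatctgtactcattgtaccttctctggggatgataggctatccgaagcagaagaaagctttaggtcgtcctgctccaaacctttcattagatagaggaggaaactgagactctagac
Jun, 5.75 kb downstream of the start, MR peak after CORT, chr4:95046455-95046514: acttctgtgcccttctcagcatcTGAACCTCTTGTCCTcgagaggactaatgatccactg
Atf3, second site upstream of the main start, MR peak after washout, chr1:191184297-191184355: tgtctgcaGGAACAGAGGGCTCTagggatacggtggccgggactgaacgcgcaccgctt
Jdp2, intron, MR peak after CORT, chr12:85619682-85619967: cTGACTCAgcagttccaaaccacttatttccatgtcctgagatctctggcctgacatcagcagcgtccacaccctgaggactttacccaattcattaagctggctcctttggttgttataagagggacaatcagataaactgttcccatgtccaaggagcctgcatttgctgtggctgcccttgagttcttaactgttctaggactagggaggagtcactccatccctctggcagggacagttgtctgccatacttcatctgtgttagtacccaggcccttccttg
Batf3, 13.4 kb downstream of the start, MR peak after CORT, chr1:191111223-191111256: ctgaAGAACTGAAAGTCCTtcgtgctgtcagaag
Batf3, 17.6 kb downstream of the start, MR peak after CORT, chr1:191115466-191115564: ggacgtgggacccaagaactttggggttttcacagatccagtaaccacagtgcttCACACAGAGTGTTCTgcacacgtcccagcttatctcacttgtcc

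After vehicle none of the 10 genes was listed for either receptor, which allows a share of up to 30.8% in each list, and 0.109% of all protein-coding genes had a peak in each of the vehicle lists. After CORT 9 of the 10 genes (90.0%, interval 55.5% to 99.7%) had a GR peak, beside 26.3% of all protein-coding genes. The same 9 genes had an MR peak, beside 30.2% of all protein-coding genes. After washout GR was left at 1 gene, Atf3, where 1.02% of all protein-coding genes had a GR peak. MR was listed at 6 genes after washout (60.0%, interval 26.2% to 87.8%), namely Fos, Fosb, Fosl2, Junb, Atf3 and Jdp2, beside 14.3% of all protein-coding genes. Fosl1, which codes for the Fos relative Fra-1, was the gene without any peak.

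The counts of peaks were 23 for GR and 23 for MR after CORT, and 1 for GR and 10 for MR after washout. Junb, which codes for JunB, held 7 of the GR peaks and 10 of the MR peaks after CORT. Without Junb, 16 GR peaks and 13 MR peaks remained after CORT and 6 MR peaks after washout. The windows around the 10 genes held 4.18 GR peaks per 100 kb after CORT, and 3.16 without Junb, where the windows of all protein-coding genes held 0.586. For MR after CORT the density was 4.18 per 100 kb at the 10 genes, 2.57 without Junb and 0.800 at all protein-coding genes. The family's genes are short, with a median length of 7878 bp against 17425 bp for all protein-coding genes, so a typical window is smaller than that of other genes. Neither the shares of genes nor the densities were matched for gene length.

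**Figure D1:**
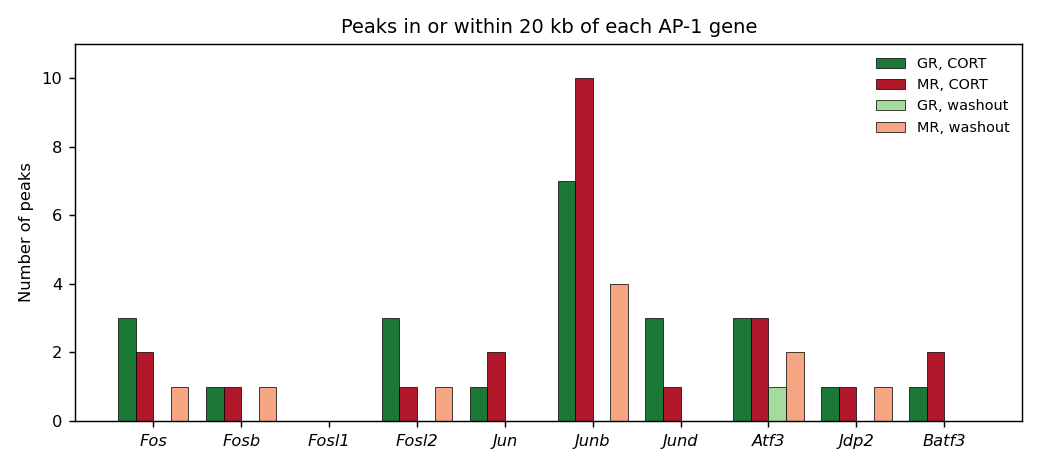
Number of peaks (vertical axis) in or within 20 kb of each of the 10 AP-1 genes (horizontal axis), by receptor and treatment. Junb stands highest with 7 GR and 10 MR peaks after CORT, Fosl1 has none, and the only GR peak after washout is at Atf3. The vehicle lists, with 0 peaks at all 10 genes, are not drawn.

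The peaks merged into 28 sites, a site being a run of overlapping peaks from any of the lists. Both receptors were listed after CORT at 16 sites, and every one of the 9 genes had at least 1 such site. GR alone was listed at 7 sites (in Fos, Fosl2, Junb, Jund and Atf3) and MR alone at 4 sites (in Jun, Junb, Atf3 and Batf3). The paper reports far fewer CORT sites as reproducible between replicates than stand in these lists, and fewer for GR than for MR. Which of the sites here are among them cannot be told from the lists. Of the 23 GR peaks after CORT 69.6% (interval 47.1% to 86.8%) overlapped an MR peak by at least 1 bp, beside 61.0% of all GR peaks. Of the 23 MR peaks 82.6% (interval 61.2% to 95%) overlapped a GR peak, beside 47.6% of all MR peaks. Neighbouring peaks at 1 gene are not independent of each other, so these intervals are too narrow. With Junb left out, 62.5% of the GR peaks overlapped an MR peak. The MR share was not computed without Junb. Of the 13 MR peaks outside Junb, those without a GR peak were 1 each at Jun, Atf3 and Batf3. All MR peaks of Junb but that 13.6 kb from the start overlapped a GR peak, several of them the same GR peak.

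After washout MR was listed at 8 of the 16 shared sites, in Fosb, Fosl2, Junb (3 sites), Atf3 (2 sites) and Jdp2. The other 8 shared sites, in Fos (2 sites), Jun, Junb (3 sites), Jund and Batf3, had no peak after washout. None of the sites with a peak of 1 receptor only after CORT was listed after washout. By peaks, 39.1% (interval 19.7% to 61.5%) of the MR peaks after CORT overlapped an MR washout peak, beside 24.6% of all MR peaks. For GR 4.35% (interval 0.110% to 21.9%) of the CORT peaks overlapped a GR washout peak, beside 2.13% of all GR peaks. Of the GR peaks after CORT 34.8% overlapped an MR peak after washout, beside 28.2% of all GR peaks, and 90.0% of the 10 MR washout peaks overlapped an MR peak after CORT, beside 75.7% of all MR washout peaks.

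**Figure D2:**
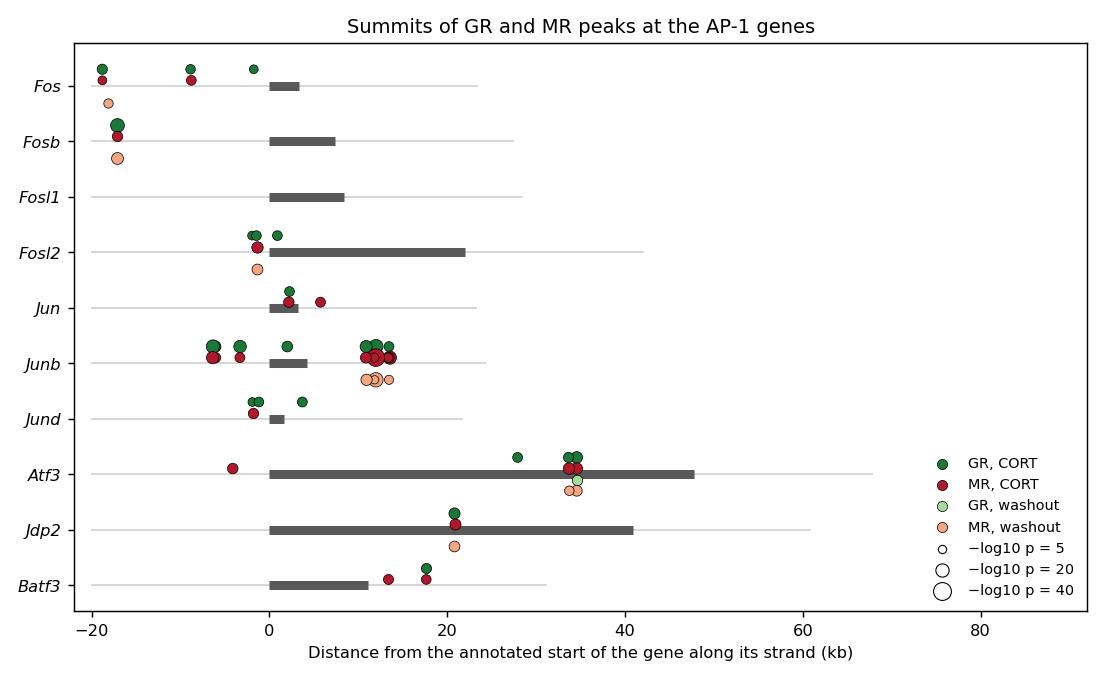
Summits of the 57 peaks along each gene, by distance from the annotated start in kb (horizontal axis). Dark bars are the gene bodies, thin lines the windows, and circle area grows with −log10 p. The 2 receptors share 16 sites, among them the cluster 10.9 to 13.4 kb downstream of the Junb start and the Atf3 pair near 34 kb, which lies just upstream of the main Atf3 start.

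Among the Fos family, Fos itself, the partner of Jun in the classical AP-1 dimer, had its sites upstream of the gene. GR was listed 18.8 kb upstream (site chr12:85455057-85455149) with a −log10 p of 9.99 and rank 3933.5 of 10602, 8.86 kb upstream (site chr12:85464974-85465135) with 8.16 and rank 6718, and 1.75 kb upstream with 6.15. MR was listed at the same distal pair, 8.78 kb upstream with a −log10 p of 8.70 and rank 8040.5 of 14638, and 18.8 kb upstream with 6.28 and rank 13020. After washout the single peak near Fos was an MR peak 18.2 kb upstream, with a −log10 p of 7.60, in the weaker part of its list at 79.1%. It overlapped no CORT peak and was the only washout site of the family that did not. The best placed Fos peak of any list was the distal GR peak, at 37.1%.

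Fosb, which codes for FosB and the truncated ΔFosB that builds up in neurons after repeated stimulation, had 1 site, 17.1 kb upstream (chr7:19327140-19327278). The GR peak after CORT had a −log10 p of 21.84 and rank 304 of 10602, within the strongest 2.87% of its list. The MR peak after CORT had a −log10 p of 10.55 and rank 5157.5 of 14638, at 35.2% of its list. After washout MR was listed there with a −log10 p of 15.07 at rank 670 of 4885, 13.7% of that list, and GR was not listed. The GR peak at Fosb therefore stood nearer to the top of its list than any GR peak at the other genes but the strongest at Junb. The Fosb sequence has no GRE, and its closest match to one has 5 mismatches within 100 bp of the GR summit.

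Fosl2, which codes for Fra-2, had a shared site 1.43 kb upstream of its start (chr5:32134300-32134605). MR was listed there after CORT with a −log10 p of 13.44 and rank 2757.5 of 14638, and GR with 8.66 and rank 5773 of 10602. After washout MR was listed with 11.79, at 28.4% of its list. A second GR peak of 8.66 lay 903 bp inside the gene in a coding exon (chr5:32136653-32136775), and another GR peak of 6.15 lay 1.94 kb upstream. Both of these were GR peaks without an MR peak. Fosl1 had no peak in its window, and the nearest summit to the gene was an MR peak after CORT at 44.3 kb.

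Of the Jun family, Jun, which codes for the main activating subunit c-Jun, had 1 shared site in its transcribed region. It lay 2.2 kb from the start in an untranslated part of the single Jun exon (chr4:95049989-95050106). GR had a −log10 p of 8.66 there and rank 5773 of 10602, and MR had 10.55 and rank 5157.5 of 14638. The second MR peak lay beyond the end of the gene, 5.75 kb from the start, with a −log10 p of 9.17 and rank 7140.5, and has a GRE. No peak was listed at Jun after washout.

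Junb, whose product can act against c-Jun at some promoters, had the strongest and the most numerous peaks of the family. In the MR list after CORT only 0.880% of protein-coding genes had at least as many peaks, and in the GR list only 1.18%. The peaks lay in 2 groups, upstream of Junb between it and Hook2, and downstream of it in Rnaseh2a and Gm49661. A single GR peak lay at the gene itself, 2.02 kb from the start between the 2 annotated Junb transcripts, with a −log10 p of 11.36.

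**Figure D3:**
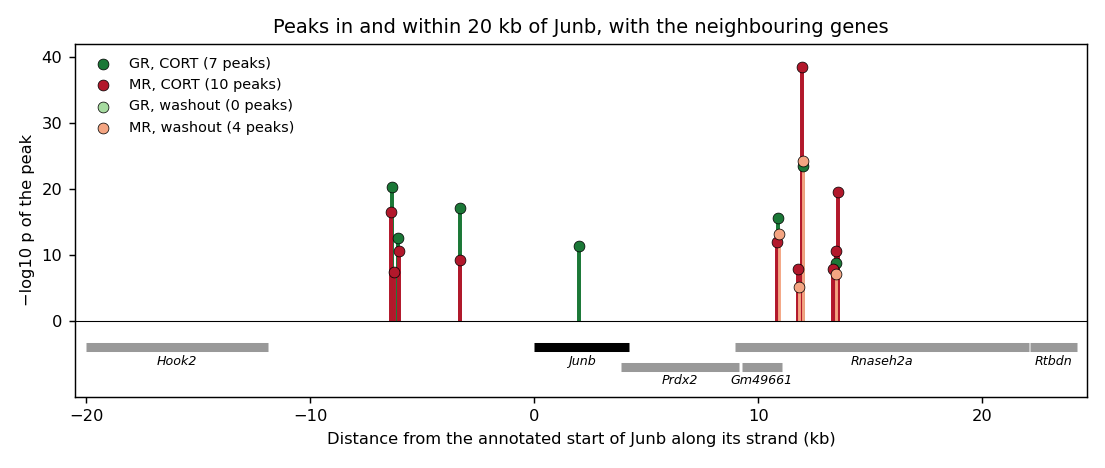
The −log10 p of each peak (vertical axis) by distance from the Junb start in kb (horizontal axis), with bars for Junb and the neighbouring genes below. The strongest peak of the family, MR after CORT with 38.55, stands about 12 kb from the start over Rnaseh2a, and no washout peak stands in the upstream group.

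The strongest Junb site lay 12 kb downstream of the start (chr8:84966624-84966959), within Rnaseh2a, which codes for a subunit of a nuclease that removes RNA from DNA. The MR peak after CORT had a −log10 p of 38.55 and rank 51.5 of 14638, within the strongest 0.352% of the list. The GR peak after CORT had 23.44 and rank 234.5 of 10602, or 2.21%. The MR peak after washout had 24.20 and rank 173 of 4885, or 3.54%, and GR had no peak there after washout. These are the strongest peaks of the site, which also held a weaker MR peak after CORT, with 7.83 at 65.5% of the list, and a weaker MR peak after washout, with 5.21 at 98.7%. The AP-1 motif shown above lies 41 bp from the MR summit and 53 bp from the GR summit after CORT.

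The neighbouring downstream sites were weaker. The site 10.9 kb from the start (chr8:84967632-84967920), in a coding exon of Gm49661, had a −log10 p of 15.67 for GR and 11.98 for MR after CORT and of 13.23 for MR after washout. The site 13.4 kb from the start had 8.76 for GR, 10.55 for MR and 7.05 for MR after washout. Between them the downstream group held all 4 MR washout peaks of Junb. The second strongest MR peak of the gene, 13.6 kb from the start (chr8:84965139-84965193) with 19.62 and rank 882, had neither a GR peak nor a washout peak. The gene start nearest to all downstream peaks was that of Gm49661, so their assignment to Junb rests on the 20 kb window alone.

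The upstream group was listed after CORT and not after washout. The site 6.34 kb upstream (chr8:84984912-84985281) had the second strongest GR peak of the gene, with a −log10 p of 20.26 and rank 392.5 of 10602, or 3.70%. MR was listed there with 16.47 and rank 1499.5 of 14638, or 10.2%. The site 3.29 kb upstream (chr8:84981968-84982088) had 17.18 for GR, at 6.67% of its list, and 9.17 for MR, at 48.8%. The site 6.07 kb upstream had 12.59 for GR and 10.55 for MR. At all 3 upstream sites GR stood nearer to the top of its list than MR did, and 2 of them are nearer to the start of Hook2 than to that of Junb.

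MR peaks after CORT with and without a washout peak overlapped in strength. The upstream MR peak of 16.47 had no washout peak, while the downstream MR peak of 11.98 had one. Over the family the 9 MR peaks that overlapped a washout peak had a median −log10 p of 12.28 (7.83 to 38.55), and the 14 that did not had a median of 9.36 (6.28 to 19.62), so the ranges overlapped. The peak of 7.83 was the weaker MR peak at the strongest Junb site. Over all MR peaks after CORT, 77.5% of those ranked in the top 10% of the list overlapped a washout peak. The share was 45.5% for those ranked from 10% to 20% and 8.36% for those ranked from 90% to 100%. Whether strength accounts for what was listed after washout was not tested.

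The last of the Jun genes, Jund, is expressed in most cells without a stimulus. RefSeq annotates its start upstream of the GENCODE start, and distances are given here from the RefSeq start. GR was listed 31 bp downstream of it (chr8:70697736-70697833) with a −log10 p of 8.66 and rank 5773 of 10602, and 699 bp upstream of it with 6.15. MR was listed 603 bp upstream with 10.55 and rank 5157.5 of 14638, at a site shared with the weaker GR peak (chr8:70697009-70697213). The strongest GR peak of Jund, with 9.15 and rank 4782.5, lay beyond the gene (chr8:70702621-70702701) and nearer to the start of Iqcn. No Jund site was listed after washout.

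Of the remaining genes, Atf3, which is induced by many kinds of cell stress, was the only one with peaks in 4 lists. Its longest transcript starts far upstream of the main promoter, so the peaks lie in an intron of that transcript. The first site (chr1:191183397-191183639) lay upstream of the main, RefSeq start by 138 bp at the GR summit and 126 bp at the MR summit. GR was listed there after CORT with a −log10 p of 14.28 and rank 1162 of 10602, or 11.0%, and MR with 13.76 and rank 2370 of 14638, or 16.2%. After washout GR was listed with 10.69 at rank 112 of 246, and MR with 11.83 at rank 1289 of 4885. The summits of the 4 peaks lay within 126 to 138 bp of the start, and none has a GRE.

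The second Atf3 site (chr1:191184247-191184438) lay about 1 kb upstream of the same start. MR was listed there after CORT with a −log10 p of 13.97 and rank 2356.5 of 14638, GR with 9.98 and rank 4359 of 10602, and MR after washout with 8.15. This site has a GRE. Further peaks of 1 receptor lay elsewhere in the window, a GR peak of 8.93 in the intron 6.79 kb upstream of the main start and an MR peak of 10.93 upstream of the long transcript by 4.12 kb. Both have an AP-1 motif within 100 bp of the summit, and neither was listed after washout.

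Jdp2 codes for a repressor that pairs with Jun proteins. It had 1 site, in an intron 20.8 kb from the start (chr12:85619682-85619967), with a −log10 p of 12.59 for GR (rank 2076.5 of 10602) and 12.28 for MR (rank 3365.5 of 14638) after CORT. After washout MR was listed with 11.52 at 30.9% of its list. Batf3, which codes for a factor needed by a class of dendritic cells, had a shared site downstream of the gene (chr1:191115460-191115564) with 9.98 for GR (rank 4359) and 8.56 for MR (rank 8654.5). A second MR peak 13.4 kb from the start had 9.55 and rank 6449. Each of the Batf3 peaks has a GRE, and none was listed after washout. Atf3 and Batf3 are neighbours on chromosome 1, and Fos and Jdp2 on chromosome 12, but no peak was shared between their windows.

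**Figure D4:**
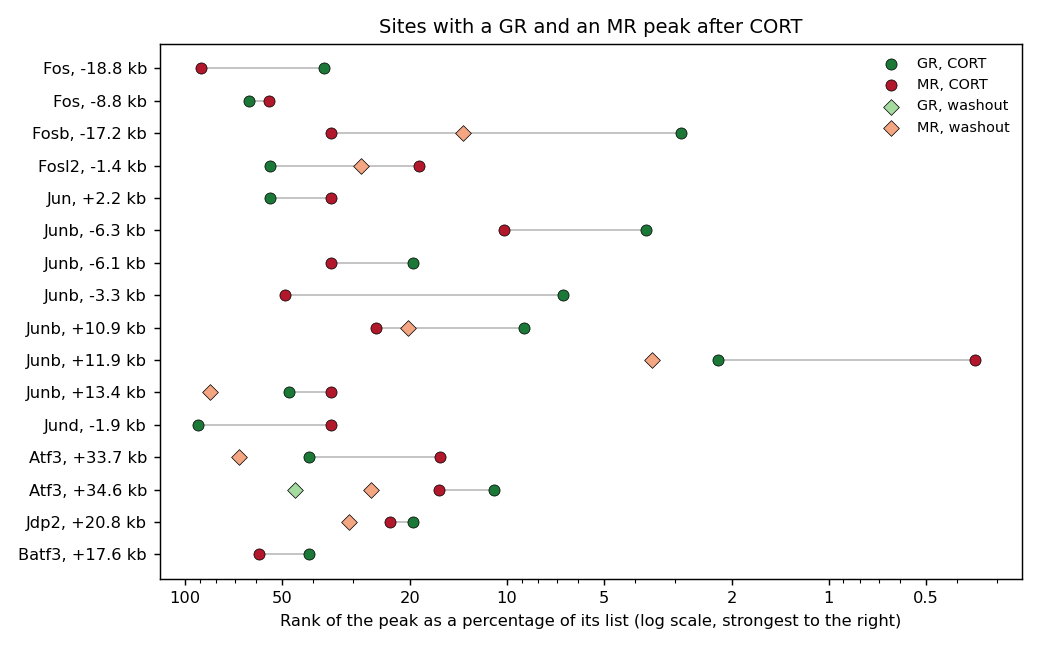
Place of each peak in its list (horizontal axis, rank as a percentage of the list, log scale with the strongest to the right) at the 16 sites where both receptors were listed after CORT, named by gene and mean distance from the annotated start. Circles are CORT peaks and diamonds washout peaks, the strongest where a site has several of 1 list; GR stood nearer to the top at 9 sites and MR at 7.

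Across the 16 shared sites GR stood nearer to the top of its list at 9 and MR at 7. The widest gap on a linear scale was at Jund, where GR stood at 91.0% and MR at 35.2%, and the site 18.8 kb upstream of Fos lay the other way, with GR at 37.1% and MR at 88.9%. The median place of the family's peaks was 41.1% of the list for GR and 35.2% for MR after CORT and 29.6% for MR after washout. The family's peaks were spread over a wide range of strength, and this held within Junb too, whose MR peaks after CORT stood between 0.352% and 74.1% of the list.

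A GRE lay within 100 bp of the summit in 26.1% (interval 10.2% to 48.4%) of the 23 GR peaks after CORT, beside 37.7% of all GR peaks. For MR the share was also 26.1% (interval 10.2% to 48.4%), beside 39.9% of all MR peaks. After washout 20.0% of the 10 MR peaks had a GRE, beside 45.5% of all MR washout peaks. The peaks with a GRE belonged to Fos, Fosl2, Jun, Jund, Atf3 and Batf3. None of the 7 GR peaks and none of the 10 MR peaks of Junb had one, which allows up to 41.0% and 30.8%, and the closest match there has 4 mismatches. Without Junb 46.2% (interval 19.2% to 74.9%) of the MR peaks had a GRE. For GR all 6 peaks with a GRE were among the 16 outside Junb. With at most 2 mismatches the family had 0 GREs under its 23 MR peaks, which allows a share of up to 14.8%, beside 11.5% of all MR peaks.

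An AP-1 motif lay within 100 bp of the summit in 13.0% (interval 2.78% to 33.6%) of the GR peaks after CORT, at Junb, Atf3 and Jdp2, beside 8.73% of all GR peaks. For MR the share was 8.70% (interval 1.07% to 28.0%), at Junb and Atf3, beside 7.81% of all MR peaks. Among the 10 MR washout peaks it was 30.0% (interval 6.67% to 65.2%), at Junb and Jdp2, beside 9.20% of all MR washout peaks, and the pair of Junb peaks counted here share 1 copy of the motif. That copy lies outside the weaker of the pair, 95 bp from its summit. The Jdp2 motif is 68 bp from the washout summit but not wholly inside that peak. In the Jdp2 MR peak after CORT it lies more than 100 bp from the summit and is not counted. The cyclic AMP response element was found in none of these peaks, beside 0.378% of all GR peaks and 0.336% of all MR peaks after CORT and 0.309% of all MR peaks after washout. A match to such a motif is a description of the sequence and does not show what bound there.

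**Figure D5:**
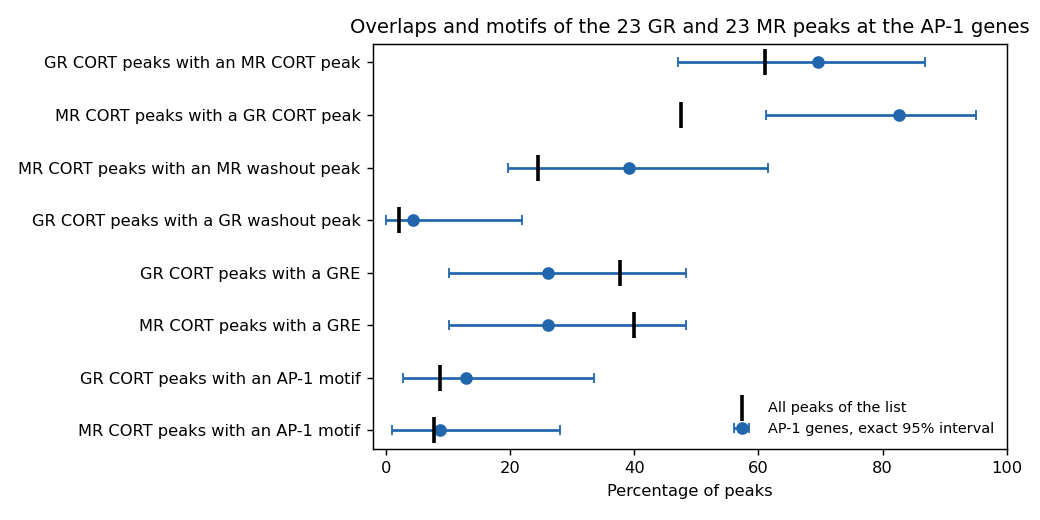
Percentage of the 23 GR and the 23 MR peaks at the AP-1 genes (blue points, bars are exact 95% intervals) that overlap another list or hold a motif within 100 bp of the summit, with the percentage over all peaks of the list as black ticks. The tick lies inside the interval in each line except for MR peaks with a GR peak, 82.6% against 47.6%, where 10 of the MR peaks are at Junb. Neighbouring peaks are not independent, so the intervals are too narrow.

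The promoters from 250 bases before to 50 bases after the RefSeq start were given for 9 of the 10 genes, all but Fosl1. The Jun and Jund promoters have a GRE with 3 mismatches, centred at −127 bp and −25 bp from the start, where 14.5% of the 32851 promoters have one. None has an AP-1 motif, where 5.20% do, and none a cyclic AMP response element, where 1.79% do. Peaks overlapped the promoters of Atf3, in 4 lists, and of Jund, for GR after CORT.

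Border pairs, the stretches between the points where the exonuclease stopped on opposite strands, were given for the receptors and for the input. At the AP-1 genes there were 3 pairs for MR after CORT, 2 of them at the strongest Junb site with sizes of 53 bp and 79 bp and 1 in the Jdp2 intron with 33 bp. For MR after washout there was 1, in the Jdp2 intron with 45 bp, and the GR lists had none. The GR list after CORT, with 139 pairs and no p-values, may hold only part of the pairs, so no comparison of the receptors is made from it. The Junb pair of 53 bp spans the AP-1 motif. The input lists held 4 pairs after vehicle, 1 after CORT and 3 after washout in the same windows, and none of these overlapped a peak. In all, MR had 3285 pairs after CORT and 1670 after washout. The input had more, with 6351 after vehicle, 5767 after CORT and 5509 after washout. A pair by itself is therefore no sign of receptor binding.

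Among 39 other genes of the pathway, fixed by name, GR was listed at 14 (35.9%) and MR at 18 (46.2%) after CORT, beside 26.3% and 30.2% of all protein-coding genes. After washout GR was listed at 1 of them (2.56%) and MR at 6 (15.4%), beside 1.02% and 14.3%. They comprised 13 further leucine zipper genes, of which 4 (30.8%) had GR and 6 (46.2%) had MR after CORT, and 13 kinase genes upstream of AP-1, with 7 (53.8%) and 8 (61.5%). With groups of this size such counts are a description only. None of the 4 genes for Srf and the Elk factors, which act on the Fos promoter, had a peak in any list, a count too small to set against the share of all genes. Of 9 other immediate early genes 3 had GR and 4 had MR, and Ier2 had the strongest GR peak, with a −log10 p of 36.99 at 0.250% of the list. Mafk, a small Maf protein that pairs with leucine zipper partners, had the strongest MR peak of these genes, with 31.39 at 1.23%.

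The genes whose numbers of peaks were most like those of Junb over the 6 lists were Gm49661, Prdx2 and Sept9, each with 7 GR and 10 MR peaks after CORT, 4 MR peaks after washout and 0 in the other lists. Gm49661 and Prdx2 start 9285 bp and 9131 bp from Junb, and their windows hold the same peaks. Sept9, on chromosome 11, had other peaks, the strongest of MR after CORT with a −log10 p of 13.0.

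The limit of 20 kb decided which peaks counted. The farthest peaks inside it were those 18.8 kb from Fos, with a −log10 p of 9.99 for GR and 6.28 for MR, and the nearest outside it was a GR peak of 8.66 at 27.3 kb from Junb, followed by a pair at Jun with 6.15 for GR at 29.5 kb and 11.98 for MR at 29.6 kb. Between 20 and 50 kb there were 6 further GR peaks and 12 further MR peaks after CORT, 2 of these MR peaks at Fosl1, and after washout 1 further MR peak at Fosl2.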

How the data were processed

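The files of 9 ChIP-nexus samples were used, with GR, MR and input chromatin sampled under each treatment. The authors trimmed the reads, aligned them to mm10 with Bowtie2, removed duplicates that shared a random barcode, combined the replicates, called peaks with MACS2 2.1.1.20160309 against input, and called border pairs with MACE. The deposited peak files give positions, a score, and −log10 p and −log10 q values, the latter in the column named for fold enrichment. Each of the deposited border pairs carries a p-value, except those of GR after CORT, where only positions stand. No file used here holds read counts, so the depth behind a peak could not be computed from the files. The paper gives mapped reads only as a range over treatments and over replicates, which was not used here. Depth and the MACS2 threshold limit which weak peaks were listed.

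From these files peaks were assigned to genes of GENCODE M21, ranked by −log10 p within each list, overlapped (at least 1 bp) and searched for motifs in GRCm38, and promoters came from RefSeq (GRCm38.p6). All 10 genes are named, with the 2 strongest CORT peaks of each receptor. The members and lists were chosen with earlier results of these data known. Python 3.11.15, pandas 2.3.3, scipy 1.17.1, pysam 0.24.0 and matplotlib 3.10.9 were used, and the overlap and motif steps were tested on simulated data. Alternatives changed the window, the threshold on −log10 q, the gene assignment, the overlap and the motif settings, and 2 were added after the data were seen. The columns of the peak files are headed in another order than the values stand, and were read by their values.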

Additional observations from a re-analysis of the deposited data

How the results depend on the processing

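The window and the gene assignment moved the counts most, by their own construction. Within 5 kb there were 14 GR and 10 MR peaks after CORT and 4 MR peaks after washout, the latter at 3 genes, and within 50 kb there were 35 MR peaks after CORT. With −log10 q of at least 5, GR had 13 peaks after CORT and MR 6 after washout. Counting only peaks for which the member has the nearest annotated start left 14 GR and 12 MR peaks after CORT, 4 MR peaks after washout and 0 GR peaks after washout, at 0 genes. Counting all transcript starts, which was chosen after seeing the data, gave 14 MR peaks after CORT and 6 after washout, and kept the GR washout peak at Atf3. Leaving out Junb, also chosen after seeing the data, gave 13 and 6. The share of MR peaks after CORT with a GRE was 0% with at most 2 mismatches, which allows up to 14.8%, beside 11.5% of all MR peaks. It was 69.6% with at most 4, beside 82.1%. With an AP-1 motif of at most 1 mismatch it was 56.5%, beside 49.2%. The other 90 of 109 alternative values stayed within 1.5 times the count or within the interval of the share. No paired analysis was possible because the replicates were combined in each list. Depth, which cannot be computed from the files, limits the weak peaks.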
